A study of Homo sapiens with 18 samples.

Results

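The 40 genes that copy DNA and supply its building blocks were followed in UM-UC-3 and T24 bladder cancer cells after knockdown of ACAT1. They were chosen by function, as named genes of the replication fork and of deoxynucleotide supply, with earlier results of these data known, out of 39496 genes in the count table. All 40 had enough reads to be tested, among 20144 genes tested in all. Against the control siRNA, the fitted level of all 40 genes was lower after ACAT1 knockdown in the mean of the 4 comparisons, with a median log2 fold change of -0.35 against 0.00 over all tested genes, but the differences between replicate libraries were of like size or larger. Without the replicate number in the model 0 of the 40 genes passed the test in that mean (0.223% of all tested genes passed), and with it 25 fell (6.46% of all tested genes fell) and 0 rose (5.95% rose).

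Both cell lines were human urothelial (transitional cell) carcinoma lines, recorded as wild type. Each was transfected with siNC, a control siRNA, or with siACAT1-1 or siACAT1-2, siRNAs against ACAT1, the mitochondrial acetyl-CoA acetyltransferase. Each of the 6 groups had 3 libraries, numbered 1 to 3 as biological replicates, and the 18 libraries were made from polyadenylated RNA with a stranded kit and held between 25163490 and 34417230 counted reads (median 28613163). The knockdown was transient, the labels gave neither the time after transfection nor whether equal numbers marked 1 experiment, and cells were measured in bulk, so that fewer cells in S phase and less RNA per cell cannot be told apart.

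Before a cell divides, the origin recognition complex marks where copying starts, and CDC45 with the GINS complex turns the loaded MCM ring into an active helicase. Polymerase alpha with primase lays down the first stretch, replication factor C (RFC) then loads the ring-shaped clamp PCNA, and polymerases delta and epsilon extend the strands while RPA covers single-stranded DNA and FEN1, DNA2 and LIG1 join the lagging-strand pieces. Ribonucleotide reductase, thymidylate synthase and thymidine kinase make the precursors. Most of these genes are transcribed as cells enter S phase, many through E2F factors, and they are widely used as markers of proliferating cells, also in bladder tumours.

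The promoters of the set held more letters of an E2F site than promoters in general. In the window from 250 bases before to 50 bases after the start of each gene (RefSeq, GRCh38.p14), which was given for 35 of the 40 genes, TTTCCCGC, TTTCGCGC, TTTGCCGC or TTTGGCGC stood on either strand in 13 (37.1%), against 571 of 11164 promoters of tested genes (5.11%). CCAAT stood in 20 of the 35 (57.1%, against 36.6%) and CACGTG, the letters of an E-box, in 5 (14.3%, against 9.92%). These shares are a description of letters and not of binding. Below are the promoters of UHRF1 and CLSPN, the genes with the smallest p for the replicate number in UM-UC-3 cells, and of PCNA, the best known gene of the set, with the match to an E2F word in capitals. The first base of the match lay at -14 from the start of UHRF1 (chr19:4909251-4909550, plus strand), at -5 from that of CLSPN (chr1:35769929-35770228, minus strand) and at -59 from that of PCNA (chr20:5126573-5126872, minus strand), and all 3 windows also held CCAAT.
UHRF1: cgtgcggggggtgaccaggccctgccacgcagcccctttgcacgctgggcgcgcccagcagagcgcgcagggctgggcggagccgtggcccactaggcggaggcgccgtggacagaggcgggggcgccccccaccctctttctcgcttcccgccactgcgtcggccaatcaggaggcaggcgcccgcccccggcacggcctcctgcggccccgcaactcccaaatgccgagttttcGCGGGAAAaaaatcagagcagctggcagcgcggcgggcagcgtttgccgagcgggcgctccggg
CLSPN: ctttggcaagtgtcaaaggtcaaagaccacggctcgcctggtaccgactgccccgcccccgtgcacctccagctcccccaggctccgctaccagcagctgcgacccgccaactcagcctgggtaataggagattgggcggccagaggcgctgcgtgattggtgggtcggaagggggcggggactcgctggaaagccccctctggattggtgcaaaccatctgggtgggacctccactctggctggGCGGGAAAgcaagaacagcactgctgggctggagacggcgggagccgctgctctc
PCNA: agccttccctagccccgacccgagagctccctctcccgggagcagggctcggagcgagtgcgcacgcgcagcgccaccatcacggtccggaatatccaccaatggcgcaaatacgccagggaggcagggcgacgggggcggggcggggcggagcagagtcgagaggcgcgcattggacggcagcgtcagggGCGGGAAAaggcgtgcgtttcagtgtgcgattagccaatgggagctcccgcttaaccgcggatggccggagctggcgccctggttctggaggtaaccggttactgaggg

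The targeted gene was checked first. ACAT1 had 47.4, 46.5 and 44.1 RPKM (reads scaled to exon length and to the counted reads of the library) in the siNC libraries of UM-UC-3 cells, in the order of their numbers, and 1.83 to 3.59 RPKM in the 6 siACAT1 libraries. In T24 cells it had 16.8, 14.6 and 17.1 RPKM with siNC and 0.671 to 1.46 RPKM with either siRNA. The groups did not overlap in either line, and the mean log2 fold change was -4.09 ± 0.12 (SE, edgeR, adjusted p = 2.1e-12).

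Markers of urothelium and epithelium differed between the lines. The uroplakins UPK1B and UPK3A, the basal keratin KRT5 and the cadherin CDH1 were at or near 0 RPKM in both lines, UPK1A and GATA3 reached 0.436 and 0.371 RPKM at most, and UPK2 had 0.152 to 0.66 RPKM. PPARG and FOXA1, transcription factors of luminal urothelium, had 2.90 to 6.23 and 0.483 to 2.03 RPKM in T24 cells and at most 0.448 and 0.219 RPKM in UM-UC-3 cells. EPCAM had 0.656 to 2.70 RPKM in T24 cells and at most 0.111 RPKM in UM-UC-3 cells. KRT7, a simple-epithelium keratin, had 1.94 to 7.22 RPKM in UM-UC-3 cells and 81.1 to 371 RPKM in T24 cells, and KRT8 and KRT18 were at 27.8 RPKM or more in all libraries. Of blood and endothelial markers, PTPRC, CD3E, LYZ, HBB, PECAM1, CDH5 and VWF reached 0.125 RPKM at most in any library, whereas CD68, a lysosomal protein used as a macrophage marker, had 126 to 216 RPKM in the 9 UM-UC-3 libraries.

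The T24 libraries of number 2 stood apart. CD68 had 121, 154 and 169 RPKM there and 15.7 to 41.5 RPKM in the 6 T24 libraries of numbers 1 and 3. The summed urothelial and epithelial markers, mostly the keratins KRT7, KRT8 and KRT18, had 300 to 424 RPKM there against 734 to 1077. Mitochondrial genes took 3.01% to 3.54% of counts there against 4.18% to 5.28%. In UM-UC-3 cells the libraries of number 3 stood apart in the 40 genes, as described below, and in the mitochondrial share (5.01%, 4.34% and 4.34% of counts, against 5.72% to 6.17% in the other 6). The part of these differences in the results was not tested. Counts of genes that passed are given below with and without these libraries.

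**Figure D1:**
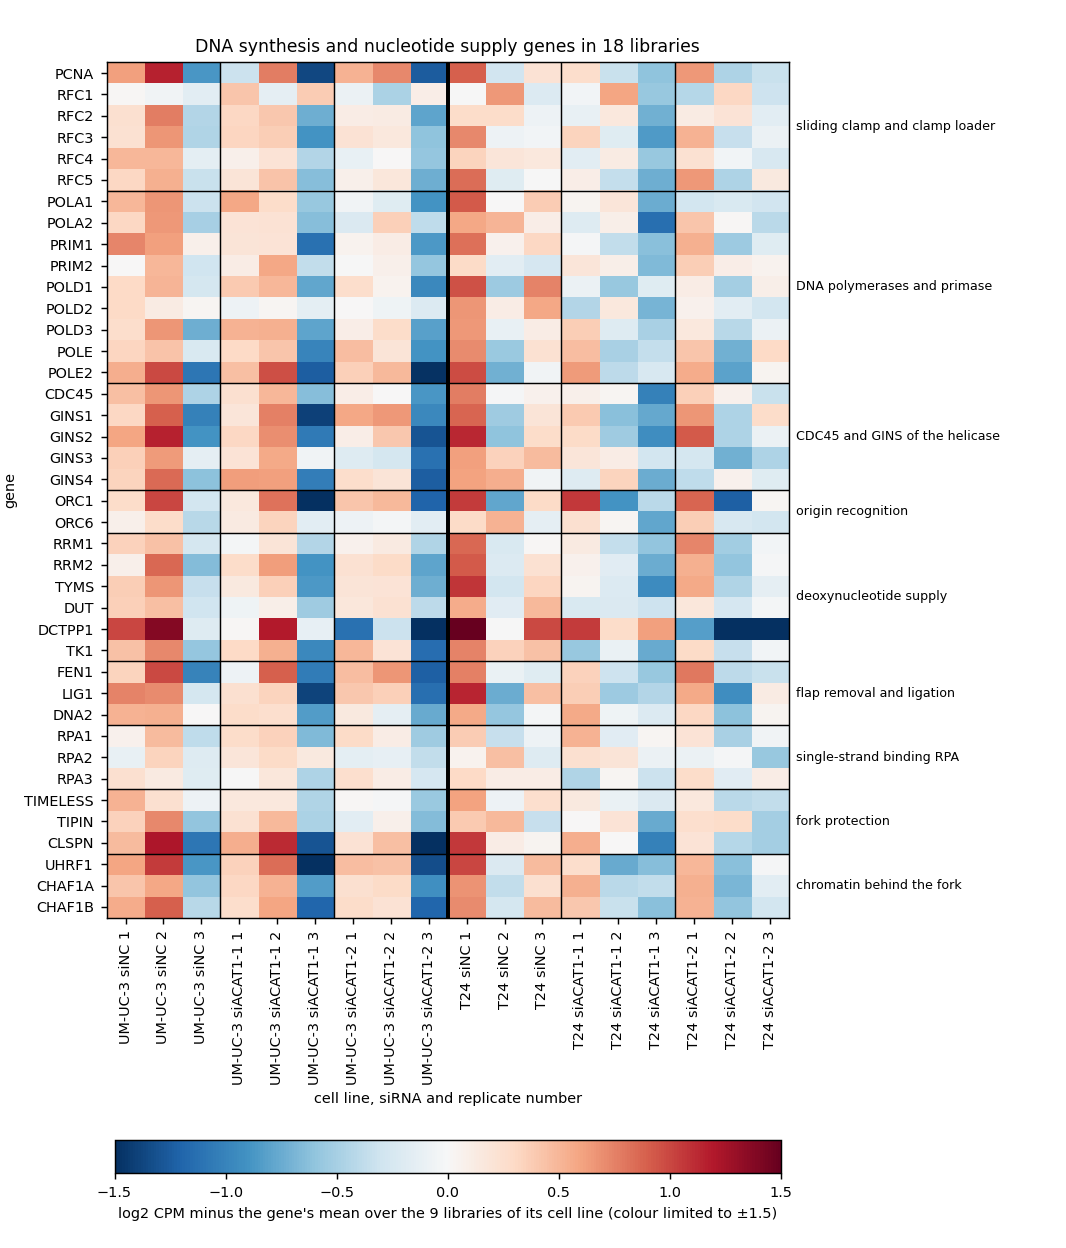
Level of each of the 40 genes (vertical axis, grouped by role) in each of the 18 libraries (horizontal axis), as log2 CPM (the count scaled to library size) minus the mean of the gene over the 9 libraries of its cell line, with colours limited to ±1.5. The columns of number 3 in UM-UC-3 cells are blue for nearly all genes, in all 3 siRNA groups, and DCTPP1 is blue in the siACAT1-2 columns of both lines.

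The replicate number separated the libraries more than the siRNA did. The median of the 40 genes, as log2 CPM minus the mean of the cell line, was 0.35, 0.66 and -0.36 in the UM-UC-3 siNC libraries of numbers 1, 2 and 3. It was 0.23, 0.46 and -0.79 with siACAT1-1, and 0.15, 0.16 and -0.84 with siACAT1-2. All 3 libraries of number 3 were therefore below all 6 others of the line, with no overlap.

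In T24 cells the same median was 0.71, -0.10 and 0.18 with siNC. It was 0.18, -0.17 and -0.61 with siACAT1-1, and 0.36, -0.44 and -0.14 with siACAT1-2. Number 1 was the highest in every group, and the siRNA groups overlapped.

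**Figure D2:**
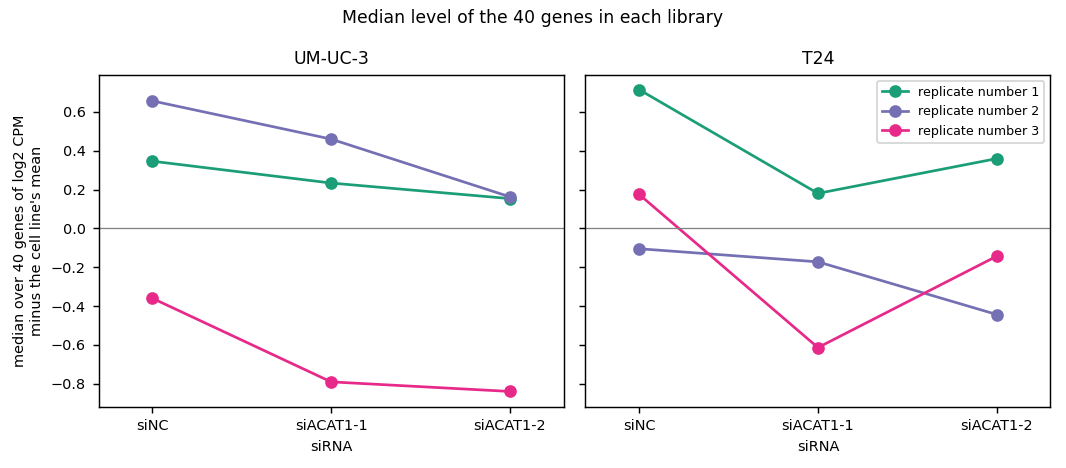
Median over the 40 genes of log2 CPM minus the mean of the cell line (vertical axis) for siNC, siACAT1-1 and siACAT1-2 (horizontal axis), with 1 line per replicate number. In UM-UC-3 cells number 3 runs from -0.36 to -0.84, below the others throughout, and within each number both siACAT1 points lie below the siNC point.

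The number was tested in an edgeR model with the group and the number as terms. In UM-UC-3 cells 36 of the 40 genes differed between numbers (adjusted p under 0.05), where 24.6% of all tested genes did, and in T24 cells 33 of 40 did, where 43.9% of all tested genes did. The 4 genes that did not pass in UM-UC-3 cells were RFC1, POLD2, ORC6 and RPA2. The 7 in T24 cells were RFC4, POLA1, POLD2, GINS3, DUT, TK1 and RPA3, of which RFC4 (adjusted p = 0.0504) and DUT (0.0534) lay just past the threshold. In UM-UC-3 cells number 3 was the lowest in all 3 groups for 39 of the 40 genes (17.9% of all tested genes), RFC1 being the exception, and number 2 was the highest for 22 (11.9%). In T24 cells number 1 was the highest in all 3 groups for 27 genes (10.5%), number 2 was the lowest for 9 (19.6%) and number 3 for 8 (6.71%).

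The difference between numbers in UM-UC-3 cells rested on number 3. Without its 3 libraries, 1 of the 40 genes, FEN1, differed between numbers 1 and 2, where 1.18% of all tested genes did. In T24 cells without the 3 libraries of number 2, 30 of the 40 genes differed between numbers 1 and 3, where 8.52% of all tested genes did, and 28 of these were among the 33.

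UHRF1, which brings maintenance methylation to newly copied DNA, had 19.9, 27.1 and 7.42 RPKM in the UM-UC-3 siNC libraries. It had 17.5, 23.1 and 4.66 RPKM with siACAT1-1 and 18.7, 18.4 and 5.59 RPKM with siACAT1-2. Number 3 was the lowest in each group, with a log2 difference of -2.02 from number 2 (edgeR test of the number, adjusted p = 1.96e-08).

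CLSPN, the claspin that links the fork to the checkpoint kinase, had 43.4, 72.0 and 15.2 RPKM with siNC in UM-UC-3 cells. It had 47.2, 66.3 and 12.9 RPKM with siACAT1-1 and 37.3, 43.6 and 10.5 RPKM with siACAT1-2. Its log2 difference between numbers 3 and 2 was -2.28 (adjusted p = 2.73e-08), and POLE2 (-2.11), a subunit of polymerase epsilon, and PCNA (-2.06) followed.

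In T24 cells the smallest p values for the number belonged to CHAF1A, the large subunit of the chromatin assembly factor, and ORC1, the largest subunit of the origin recognition complex. CHAF1A had 68.5, 36.9 and 55.0 RPKM with siNC, 63.3, 35.5 and 34.95 RPKM with siACAT1-1, and 61.1, 29.5 and 40.7 RPKM with siACAT1-2. ORC1 had 5.88, 1.83 and 3.76 RPKM with siNC, 6.09, 1.66 and 2.25 RPKM with siACAT1-1, and 5.10, 1.34 and 3.08 RPKM with siACAT1-2. Number 1 was the highest in each group for both genes, and number 2 was below number 1 by -1.07 (CHAF1A, adjusted p = 7.41e-07) and -1.97 (ORC1, adjusted p = 1.54e-06) on the log2 scale in the edgeR test.

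The share of the variation between the 9 libraries of a line told the same. For the median gene of the 40, the replicate number took 83.6% of the sum of squares of log2 CPM in UM-UC-3 cells and the siRNA 9.89%, where the median over all tested genes was 38.2% for the number and 25.5% for the siRNA. In T24 cells the number took 61.5% and the siRNA 24.6%, against 43.99% and 25.5% over all tested genes. DCTPP1, GINS3 and TK1 in T24 cells were among the genes in which the siRNA took more than the number.

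**Figure D3:**
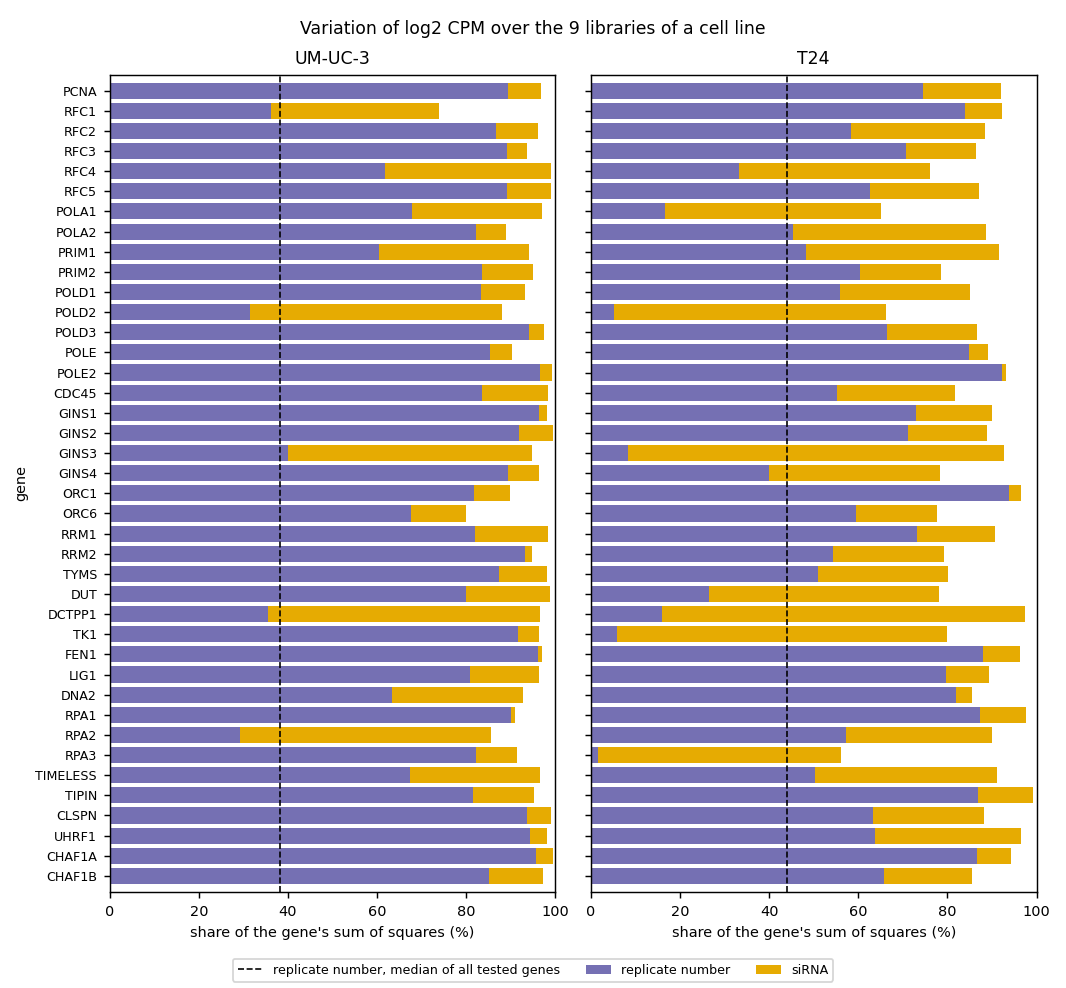
Share of each gene's sum of squares of log2 CPM (horizontal axis, %) taken by the replicate number and by the siRNA in the 9 libraries of each cell line, with 1 bar per gene. The dashed line is the median share of the number over all tested genes (38.2% and 43.99%), and most of the 40 bars for the number pass it in both lines.

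The comparison of siACAT1 with siNC asked whether loss of ACAT1 changes the genes of DNA synthesis. The siRNAs of a line share its 3 siNC libraries, so the values below stand side by side and are not independent of each other. Without the replicate number in the edgeR model, 0 of the 40 genes passed the test in UM-UC-3 cells for siACAT1-1 (0.00993% of all tested genes passed) or siACAT1-2 (0.0546%), in T24 cells for siACAT1-1 (0.124%) or siACAT1-2 (0.268%) or in the mean of the 4 (0.223%). At an unadjusted p under 0.05 the counts were 0, 3, 4, 4 and 8. The share of all tested genes at that unadjusted threshold is not given here or below. Such counts can therefore not be read as particular to the 40 genes or to a list named below. DESeq2 called 0, 0, 1, 2 and 3, limma on log2(RPKM + 1) called 0, 0, 0, 1 and 0, and limma on log2(RPKM + 0.1) called 0 in each. The fitted fold change was below 0 for 35, 40, 38 and 39 genes in the 4 comparisons, with medians of -0.18, -0.33, -0.48 and -0.31, while the median of all tested genes stayed between -0.01 and 0.01.

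With the number as a block, 3 genes of UM-UC-3 cells fell with siACAT1-1 (1.1% of all tested genes fell) and 4 with siACAT1-2 (0.72%), 22 of T24 cells fell with siACAT1-1 (7.31%) and 8 with siACAT1-2 (3.93%), and 25 fell in the mean of the 4 (6.46%). None rose in any of them, where 1.96%, 0.635%, 6.59%, 4.55% and 5.95% of all tested genes rose. Without the 3 UM-UC-3 libraries of number 3 the genes that fell numbered 0, 1, 17, 7 and 20, where 0.0244%, 0.176%, 6.3%, 3.57% and 2.96% of all tested genes fell. Without the 3 T24 libraries of number 2 they numbered 3, 11, 29, 12 and 28, where 1.82%, 1.03%, 10.4%, 4.39% and 8.39% fell. With 1 library left out, the genes that passed ranged from 0 to 3, 1 to 9, 3 to 30, 2 to 14 and 16 to 31.

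Of the 25 genes that fell in the mean, 20 also passed without the UM-UC-3 libraries of number 3. The other 5 were RFC2 (-0.26, adjusted p = 0.0928), RFC5 (-0.26, 0.154), POLD1 (-0.35, 0.0668), GINS4 (-0.36, 0.0935) and CHAF1A (-0.22, 0.11). Without the T24 libraries of number 2 all 25 passed, and DNA2, POLD3 and RRM2 passed besides.

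**Figure D4:**
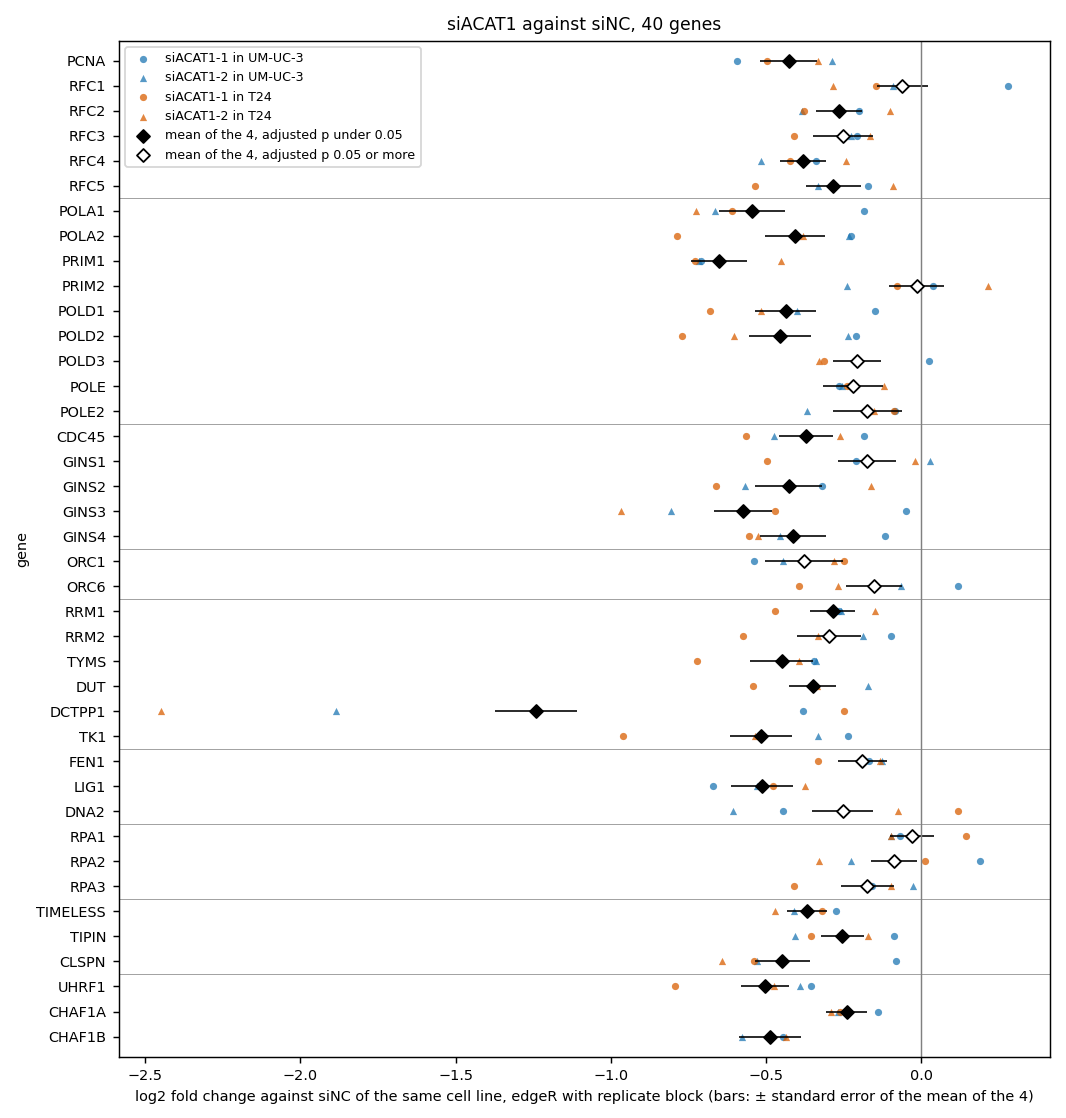
Log2 fold change against siNC of the same line (horizontal axis) for each of the 40 genes (vertical axis) from edgeR with the replicate number as a block. Circles and triangles are the 4 comparisons, diamonds with bars are their mean ± SE, and the diamond is black for the 25 genes with an adjusted p under 0.05. All diamonds lie below 0, from -1.24 (DCTPP1) to -0.02 (PRIM2).

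Taken one number at a time, the siACAT1 library lay below its siNC library for 27 to 40 of the 40 genes in each of the 12 differences, where 45.1% to 50.9% of all tested genes did. The median over the 40 genes ranged from -0.07 (T24, siACAT1-1, number 2) to -0.73 (T24, siACAT1-1, number 3) on the log2 scale. The 6 siACAT1 libraries together lay below all 3 siNC libraries for 2 genes in T24 cells, GINS3 and TK1 (1.4% of all tested genes), and for 0 in UM-UC-3 cells (1.49%).

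Of the clamp and its loader, 4 of 6 genes fell in the mean of the 4 comparisons with the block, and 0 passed without it. PCNA, the sliding clamp, had 31.2, 45.3 and 11.5 RPKM with siNC in UM-UC-3 cells, 16.9, 34.02 and 8.03 RPKM with siACAT1-1, and 30.2, 34.4 and 9.15 RPKM with siACAT1-2. The T24 libraries had 57.0, 27.9 and 38.4 RPKM with siNC, 37.7, 26.5 and 21.1 RPKM with siACAT1-1, and 47.0, 24.6 and 25.9 RPKM with siACAT1-2. The groups overlapped in both lines, while every siACAT1 library was below the siNC library of its own number.

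The mean log2 fold change of PCNA was -0.43 ± 0.35 (SE, adjusted p = 0.716) without the block and -0.43 ± 0.09 (adjusted p = 0.00452) with it. With the block it was -0.43 (adjusted p = 0.0259) without the UM-UC-3 libraries of number 3 and -0.50 (0.000803) without the T24 libraries of number 2. The loader subunits RFC4 (-0.38, adjusted p = 0.00227 with the block), RFC5 (-0.28, 0.0385) and RFC2 (-0.27, 0.0227) also fell. RFC3 had -0.25 (0.0925) and RFC1, the large subunit, -0.06 (0.7).

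Of the polymerase and primase genes, 5 of 9 fell with the block. PRIM1, the catalytic subunit of primase, had 15.7, 14.4 and 10.2 RPKM with siNC in UM-UC-3 cells, 11.1, 10.6 and 4.38 RPKM with siACAT1-1, and 10.0, 10.3 and 5.51 RPKM with siACAT1-2. T24 cells had 9.92, 6.52 and 7.49 RPKM with siNC, 5.69, 4.72 and 3.80 RPKM with siACAT1-1, and 7.96, 4.25 and 5.26 RPKM with siACAT1-2. For UM-UC-3 3 and for T24 1 of the 6 siACAT1 libraries lay within the range of siNC, and each was below the siNC library of its own number.

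Its mean log2 fold change was -0.62 ± 0.22 (SE, adjusted p = 0.299) without the block and -0.65 ± 0.09 (adjusted p = 0.000122) with it. PRIM1 passed with the block in UM-UC-3 cells for both siRNAs (-0.71 and -0.72) and in T24 cells for siACAT1-1 (-0.73). Without the UM-UC-3 libraries of number 3 it passed for neither siRNA in UM-UC-3 cells, and it still passed for siACAT1-1 in T24 cells. PRIM2, the regulatory subunit of the same enzyme, had 2.80, 3.91 and 2.33 RPKM with siNC in UM-UC-3 cells, 3.11, 4.07 and 2.19 RPKM with siACAT1-1, and 2.84, 3.01 and 1.98 RPKM with siACAT1-2.

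In T24 cells PRIM2 had 3.15, 2.57 and 2.35 RPKM with siNC, 3.01, 3.00 and 1.70 RPKM with siACAT1-1, and 3.27, 3.08 and 2.84 RPKM with siACAT1-2. The groups overlapped in both lines and the mean log2 fold change was -0.02 ± 0.17 (adjusted p = 1, and 0.961 with the block). The difference between the primase subunits was not tested. The catalytic subunit of polymerase alpha, POLA1 (-0.55 with the block, adjusted p = 0.00247), its second subunit POLA2 (-0.41, 0.00856), the catalytic subunit of polymerase delta, POLD1 (-0.44, 0.0058), and POLD2 (-0.46, 0.00564) also fell. POLD3 (-0.21, 0.0799), POLE (-0.22, 0.151) and POLE2 (-0.17, 0.342) did not pass.

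POLD1 had 16.8, 19.2 and 11.7 RPKM with siNC in UM-UC-3 cells, 18.5, 18.8 and 8.04 RPKM with siACAT1-1, and 16.8, 14.4 and 7.43 RPKM with siACAT1-2. In T24 cells it had 13.9, 5.43 and 12.9 RPKM with siNC, 6.91, 5.28 and 6.63 RPKM with siACAT1-1, and 7.57, 5.58 and 8.07 RPKM with siACAT1-2. The siNC library of number 2 in T24 cells lay within the range of the siACAT1 libraries, and the groups overlapped in both lines.

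**Figure D5:**
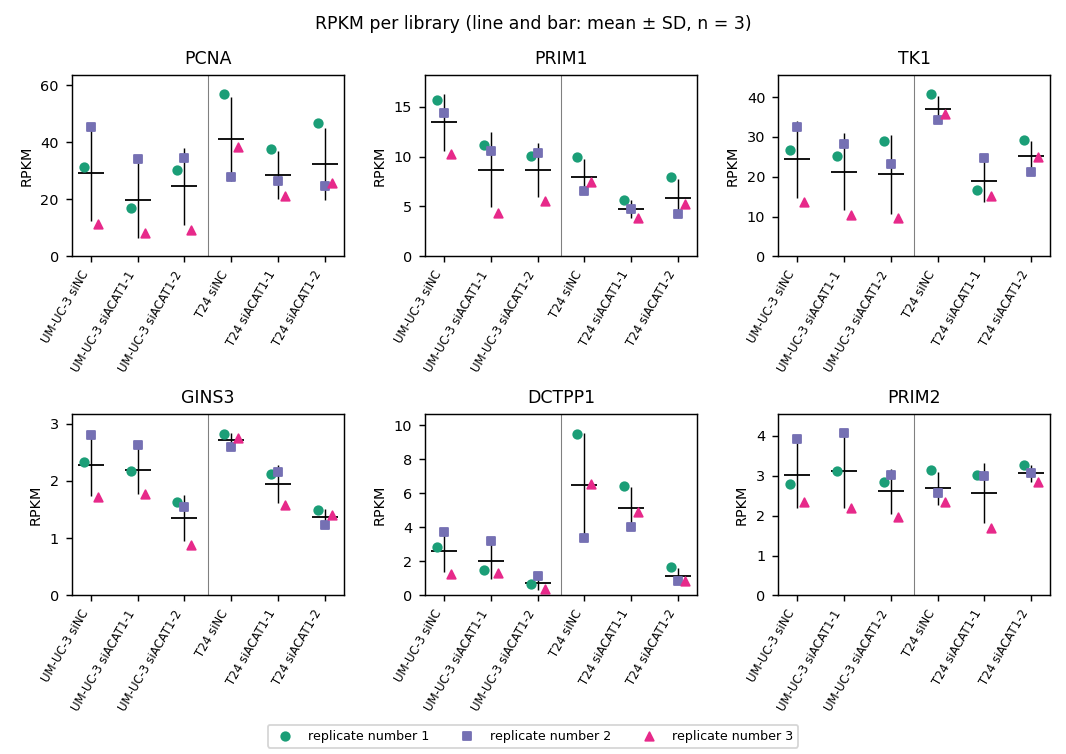
RPKM (vertical axes, from 0) of PCNA, PRIM1, TK1, GINS3, DCTPP1 and PRIM2 in each of the 18 libraries by group (horizontal axes), with the mean ± SD of each group (n = 3). Symbols mark the replicate number. DCTPP1 and GINS3 are lowest with siACAT1-2 in both lines, while the PRIM2 groups overlap in both lines.

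Of CDC45 and the GINS complex, which complete the helicase, 4 of 5 genes fell with the block. GINS3 had 2.33, 2.81 and 1.71 RPKM with siNC in UM-UC-3 cells, 2.17, 2.63 and 1.78 RPKM with siACAT1-1, and 1.63, 1.54 and 0.886 RPKM with siACAT1-2. The T24 libraries had 2.81, 2.59 and 2.75 RPKM with siNC, 2.11, 2.16 and 1.57 RPKM with siACAT1-1, and 1.48, 1.22 and 1.40 RPKM with siACAT1-2. In T24 cells the 3 groups did not overlap, and in UM-UC-3 cells siACAT1-2 alone lay below all siNC libraries.

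The mean log2 fold change of GINS3 was -0.57 ± 0.15 (SE, adjusted p = 0.153) without the block and -0.57 ± 0.09 (adjusted p = 0.000467) with it. GINS2 (-0.43, 0.0132 with the block), GINS4 (-0.41, 0.0152) and CDC45 (-0.37, 0.00801) fell as well, and GINS1 had -0.18 (0.252). Neither of the origin recognition genes passed in that mean (ORC1 -0.38, adjusted p = 0.053, and ORC6 -0.15, adjusted p = 0.294, with the block).

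Of the deoxynucleotide supply genes, 5 of 6 fell with the block. RRM1, the large subunit of ribonucleotide reductase, had 87.1, 92.6 and 59.1 RPKM with siNC in UM-UC-3 cells, 69.7, 76.8 and 51.6 RPKM with siACAT1-1, and 73.4, 77.03 and 53.6 RPKM with siACAT1-2. T24 cells had 130.2, 67.8 and 78.3 RPKM with siNC, 80.6, 61.4 and 50.03 RPKM with siACAT1-1, and 117 RPKM, 55.7 RPKM and 73.99 RPKM with siACAT1-2. The groups overlapped, each siACAT1 library was below the siNC library of its number, and the mean log2 fold change was -0.30 ± 0.20 (SE, adjusted p = 0.631) without the block and -0.29 ± 0.07 (adjusted p = 0.0143) with it.

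RRM2, the small subunit, had 20.6, 35.3 and 12.8 RPKM with siNC in UM-UC-3 cells, 24.5, 29.4 and 10.7 RPKM with siACAT1-1, and 23.6, 24.3 and 12.04 RPKM with siACAT1-2. In T24 cells it had 41.6, 21.1 and 27.8 RPKM with siNC, 23.5, 21.3 and 13.8 RPKM with siACAT1-1, and 31.2, 16.2 and 23.1 RPKM with siACAT1-2. The groups overlapped, and its mean log2 fold change of -0.33 ± 0.26 (SE, adjusted p = 0.72, and 0.0632 with the block) did not pass.

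TYMS, thymidylate synthase and the target of fluoropyrimidines, had 108 RPKM, 132 RPKM and 68.5 RPKM with siNC in UM-UC-3 cells, 96.5, 105 and 47.2 RPKM with siACAT1-1, and 98.5, 99.4 and 54.1 RPKM with siACAT1-2. The T24 libraries had 89.3, 38.7 and 57.3 RPKM with siNC, 44.8, 40.1 and 23.1 RPKM with siACAT1-1, and 61.7, 34.3 and 41.1 RPKM with siACAT1-2. The groups overlapped in both lines. The mean log2 fold change was -0.46 ± 0.24 (SE, adjusted p = 0.512) without the block and -0.45 ± 0.10 (adjusted p = 0.00586) with it, and 26.2% of the TYMS exon bases are shared with another annotated gene.

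TK1, the cytosolic thymidine kinase of the salvage path, had 26.8, 32.4 and 13.8 RPKM with siNC in UM-UC-3 cells, 25.3, 28.2 and 10.3 RPKM with siACAT1-1, and 28.9, 23.3 and 9.55 RPKM with siACAT1-2. T24 cells had 40.8, 34.3 and 35.8 RPKM with siNC, 16.8, 24.7 and 15.1 RPKM with siACAT1-1, and 29.1, 21.1 and 25.03 RPKM with siACAT1-2. All 6 siACAT1 libraries of T24 cells were below all siNC libraries, and those of UM-UC-3 cells overlapped with siNC.

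The mean log2 fold change of TK1 was -0.50 ± 0.24 (SE, adjusted p = 0.483) without the block and -0.52 ± 0.10 (adjusted p = 0.00219) with it, and with siACAT1-1 in T24 cells it was -0.96 ± 0.17 (adjusted p = 0.000945) with it. Without the T24 libraries of number 2 the value for siACAT1-1 in T24 cells was -1.28 (adjusted p = 1.08e-05). DUT, the dUTPase that keeps uracil out of DNA, fell with the block (-0.35, adjusted p = 0.00483).

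DCTPP1, the pyrophosphatase that clears dCTP and its modified forms, differed most of the 40 genes. It had 2.87, 3.71 and 1.27 RPKM with siNC in UM-UC-3 cells, 1.48, 3.19 and 1.32 RPKM with siACAT1-1, and 0.642, 1.15 and 0.399 RPKM with siACAT1-2. In T24 cells it had 9.48, 3.34 and 6.54 RPKM with siNC, 6.45, 4.03 and 4.88 RPKM with siACAT1-1, and 1.65, 0.876 and 0.876 RPKM with siACAT1-2. The siACAT1-2 libraries lay below all other libraries of their line, and the siACAT1-1 libraries overlapped with siNC.

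The 2 siRNAs were compared directly as siACAT1-2 minus siACAT1-1 over both lines, and DCTPP1 was the 1 gene of the 40 that passed without the block (2.56% of all tested genes passed). Its log2 difference was -1.82 ± 0.38 (SE, adjusted p = 0.0171 with edgeR), and -1.85 ± 0.17 (adjusted p = 4.87e-07) with the block. With the block GINS3 (-0.63, adjusted p = 0.000533) and RPA2 (-0.38, 0.00387) were also lower with siACAT1-2 and GINS1 (0.36, 0.0265) was higher, which made 4 of the 40 where 20.6% of all tested genes differed. Without the UM-UC-3 libraries of number 3 GINS1 did not pass (0.32, adjusted p = 0.109), and without the T24 libraries of number 2 the count was 12. The share of all tested genes in these refits is not given here, so the 12 cannot be read as particular to the 40 genes. GINS3 without the block had -0.61 ± 0.18 (adjusted p = 0.0828). ACAT1 itself was lower with siACAT1-2 (-0.62, adjusted p = 0.034).

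DCTPP1 shares 42.1% of its exon bases with ZNF771, which lies on the opposite strand, and reads of the pair can be told apart only if the counting used the strand, which was not given in the sources used here. ZNF771 had a siRNA difference of -0.45 on the log2 scale, smaller than that of DCTPP1. DCTPP1 and GINS3, the genes of the 40 with the largest difference between the siRNAs, both hold CTAGCAA in their 3′ UTR, and these were the only ones of the 40 that do. Among 1390 words of 7 letters in the ACAT1 transcript that occur in at least 100 tested 3′ UTRs, CTAGCAA had the lowest median of this same difference, -0.18 over 972 genes (7.47% of 13013 genes with a 3′ UTR, whose median was 0.01), and the next word, TAGCAAA, had -0.14. The word was chosen on this contrast, so it is a description with no test, and the siRNA sequences were not used here. Below are the 30 bases around it (GENCODE transcripts, GRCh38) with the word in capitals, at chr16:58405835-58405864 (plus strand, 3′ UTR) in GINS3, at chr16:30423881-30423910 (minus strand, 3′ UTR) in DCTPP1 and at chr11:108146266-108146295 (plus strand, coding exon) in ACAT1.
GINS3: acacctcacaaCTAGCAAaaattgtctttg
DCTPP1: agatctggtttCTAGCAAattcccagtagg
ACAT1: gtctggttgtaCTAGCAAacattaaaatgt

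Of the genes that finish the lagging strand, LIG1, the replicative ligase, fell (-0.51 with the block, adjusted p = 0.00237), while FEN1, the flap nuclease (-0.19, 0.127), and DNA2 (-0.25, 0.0998) did not pass. None of the 3 RPA genes passed in the mean. RPA1, the large subunit, had 18.3, 24.1 and 13.9 RPKM with siNC in UM-UC-3 cells, 21.99, 21.8 and 11.2 RPKM with siACAT1-1, and 21.9, 19.4 and 12.9 RPKM with siACAT1-2. The T24 libraries had 12.7, 8.53 and 9.98 RPKM with siNC, 14.3, 9.48 and 10.4 RPKM with siACAT1-1, and 10.99, 7.72 and 9.96 RPKM with siACAT1-2. The groups overlapped in both lines, with a mean log2 fold change of -0.02 ± 0.19 (SE, adjusted p = 1, and 0.853 with the block).

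All 3 fork protection genes fell with the block, TIMELESS at -0.37 (edgeR, adjusted p = 0.000933), its partner TIPIN at -0.25 (0.0194) and CLSPN at -0.45 (0.0027). All 3 genes that rebuild chromatin behind the fork fell as well, UHRF1 at -0.50 (0.000334), CHAF1B at -0.49 (0.00357) and CHAF1A at -0.24 (0.0226). Without the block, the 6 genes had adjusted p values from 0.352 (TIMELESS) to 0.834 (CHAF1A). The medians of the roles in the mean without the block ran from -0.10 (RPA) and -0.22 (origin recognition) to -0.42 (deoxynucleotide supply) and -0.45 (chromatin), beside 0.00 over all tested genes.

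The knockdown difference was compared between the lines as UM-UC-3 minus T24. None of the 40 genes passed with edgeR (0% of all tested genes passed), 0 at an unadjusted p under 0.05, 0 with DESeq2 or limma, and 0 with the block (0.104% of all tested genes; 3 of the 40 at an unadjusted p under 0.05). With the block and without the T24 libraries of number 2, 1 gene passed, POLD2. The widest differences belonged to TK1 (0.51), POLD1 (0.48) and DNA2 (-0.47). A p that misses the threshold does not show that the lines responded alike.

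The lines were also compared with siNC alone. Without the block, 6 of the 40 genes differed, where 44.3% of all tested genes did. TIPIN, which stabilises the fork with TIMELESS, had 28.1, 36.2 and 15.2 RPKM in UM-UC-3 siNC libraries and 12.1, 14.3 and 7.81 RPKM in those of T24, with a log2 difference of 1.27 ± 0.36 (SE, adjusted p = 0.00847). TIMELESS (0.94, 0.00419), RPA1 (0.89, 0.0259) and DUT (0.69, 0.0262) were higher in UM-UC-3 cells too. For TIPIN the siNC libraries of the lines did not overlap.

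RPA3, the small RPA subunit, had 7.65, 7.08 and 5.91 RPKM in UM-UC-3 siNC libraries and 14.8, 14.5 and 14.1 RPKM in those of T24, with no overlap (-1.02 ± 0.20, adjusted p = 0.000589). DCTPP1 was lower in UM-UC-3 cells as well (-1.28 ± 0.50, adjusted p = 0.0481), from the values given above. POLE2 had 2.89, 3.92 and 0.953 RPKM in UM-UC-3 siNC libraries and 1.92, 0.636 and 1.00 RPKM in those of T24, and its difference of 1.15 ± 0.64 did not pass (adjusted p = 0.157). With the block 26 of the 40 genes differed, where 61.7% of all tested genes did (20 without the UM-UC-3 libraries of number 3), but a block within each line cannot remove a difference between the lines in their experiments.

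Other genes of the same pathways, from lists set by function, were fitted in the same model, and in the mean of the 4 comparisons without the block 0 of these genes passed (in the order of the lists below, 2, 0, 4, 2 and 4 genes had an unadjusted p under 0.05). With the block 6.46% of all tested genes fell in that mean and 5.95% rose. Of 22 other licensing and helicase genes 13 fell with it and 0 rose (median -0.29, from -0.50 for CDC7, the kinase that fires origins, to 0.13 for ORC4, which did not pass). Of 8 other loader and polymerase subunits 3 fell (median -0.06, from CHTF18 at -0.53 to POLD4 at 0.29, which did not pass). Of 23 other nucleotide metabolism genes 8 fell and 1 rose (median -0.18): PAICS of purine synthesis was the lowest at -0.61 (adjusted p = 0.00035) and IMPDH1 of guanine nucleotide synthesis the highest at 0.31 (0.01). Of 12 E2F factors and S-phase checkpoint genes 3 fell (median -0.18), with E2F8 at -0.66 (0.00265) and WEE1 at 0.13 (0.45) as the ends. Of 6 other genes of chromatin replication 4 fell and 1 rose, from DNMT1, the maintenance methyltransferase, at -0.51 (0.000414) to the histone chaperone ASF1A at 0.37 (0.0294). In the same order, the genes of these lists that fell numbered 5, 1, 4, 2 and 3 without the UM-UC-3 libraries of number 3, where 2.96% of all tested genes fell. Without the T24 libraries of number 2 they numbered 14, 3, 10, 5 and 4, where 8.39% of all tested genes fell.

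Markers of mitosis fell as well. All 12 passed as lower in the mean with the block (median -0.53), with MKI67 at -0.77 (adjusted p = 1.41e-05) and BUB1 at -0.36 (0.0111), the lowest and the highest of the list in the fit without the block, and 0 passed without it (7 at an unadjusted p under 0.05, median -0.44). The share of all tested genes at that unadjusted p is not given here. Without the UM-UC-3 libraries of number 3, 8 of the 12 passed with the block, and without the T24 libraries of number 2 all 12 did. Of all tested genes 6.46% fell in the mean with the block, 2.96% without the former libraries and 8.39% without the latter. In the T24 libraries of number 2 with siACAT1-1 and siACAT1-2 the deviation of their median from the mean of the line was -1.16 and -1.43, lower than that of the 40 genes in the same libraries (-0.17 and -0.44), while with siNC it was 0.10, higher than that of the 40 genes (-0.10). In the UM-UC-3 libraries of number 3 it was -0.10, -0.46 and -0.66. Their part in the results of the 40 genes was not tested.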

How the data were processed

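RNA of UM-UC-3 and T24 cells was measured in 18 libraries (6 groups of cell line and siRNA, 3 libraries each), which the submitters describe as independent experiments. Per the labels, the libraries were made with a stranded kit that carries molecular identifiers, the reads were filtered with Trimmomatic 0.36, mapped with STAR 2.5.3 to GRCh38 and counted with featureCounts of Subread 1.5.1, as the submitters' processing notes list these tools. The authors deposited the counts per gene without normalization, and they deposited RPKM values made from these counts, scaled to gene length and counted reads. Which annotation was used, whether strand was used in counting and whether identifiers were collapsed is not given in the sources used here. Reads of overlapping genes can therefore be mixed. By the exon coordinates deposited with the counts, 20 of the 40 genes share any exon base with another gene, and 4 share over 20% (DCTPP1, TYMS, GINS4 and TIPIN).

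Counts were tested in R 4.3.3 with the quasi-likelihood test of edgeR 4.0.16 (TMM, filterByExpr by group) in 1 model of all 18 libraries with 6 group coefficients, and p values were adjusted by Benjamini-Hochberg over the 20144 genes kept, within each contrast. Adjusted p under 0.05 was the threshold. All p values measure the spread between these libraries, which may be partly technical. A second model added the replicate number within each cell line as a block, and the number itself was tested in it. Levels per library are the deposited RPKM, and deviations are log2 CPM (prior count 2). Depth was 25163490 to 34417230 counted reads, and replicate pairs differed by more than sampling noise (chi-square per degree of freedom 13.0 to 194). Alternatives were RLE size factors, no low-count filter, DESeq2 1.42.0, limma 3.58.1 on log2(RPKM + 1) or log2(RPKM + 0.1), each line alone, leaving out each library, and, chosen after seeing the data, leaving out the UM-UC-3 libraries of number 3 or the T24 libraries of number 2 (with genes filtered again) and repeating alternatives with the block. On simulated counts of 20144 genes edgeR recovered 88% of 2-fold and 99% of 4-fold changes in the mean of the 4 comparisons. The simulation took its spread from the model with the block and held no difference between replicate numbers. It therefore does not show how many such changes the model without the block would find in these libraries.

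The pairing by number comes from the data and not from the labels. Deviations from group means correlated, across genes, in all 9 same-number pairs of UM-UC-3 cells (r 0.115 to 0.576) and of T24 cells (r 0.356 to 0.686). With a prior count of 1, the lowest UM-UC-3 pair had 0.0945, so that 8 of 9 were over 0.1. Pairs of other numbers in the same line had r from -0.545 to 0.269 in UM-UC-3 cells (2 of 18 over 0.1). In T24 cells these had r from -0.567 to 0.210 (5 of 18 over 0.1). The ranges of same and other numbers thus overlapped in UM-UC-3 cells and not in T24 cells. The deviations within a group cancel out for each gene, so positive same-number r draws other-number r down. These ranges are therefore not independent of each other. Same numbers of different lines had r from -0.327 to 0.211 (3 of 27 over 0.1). Other numbers of different lines had r from -0.351 to 0.333 (21 of 54 over 0.1).

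The 40 genes and all gene lists were chosen with earlier results of these data known. Values per library are given for PCNA, RRM1, RRM2, TYMS and TK1, for the 3 lowest and 2 highest genes in the mean of the 4 comparisons, for the 2 with the widest difference between siRNAs, between lines and, in either direction, between lines with siNC, and for the 2 with the smallest p for the number in each line. Of each other list the counts and the lowest and highest gene are given. Promoters are RefSeq windows of GRCh38.p14 and 3′ UTRs are those of GENCODE v44 transcripts.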

Additional observations from a re-analysis of the deposited data

How the results depend on the processing

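Without the replicate block, 0, 0, 0, 0 and 0 of the 40 genes passed for siACAT1-1 and siACAT1-2 in UM-UC-3, then in T24 cells, and in their mean, 1 in the difference between the siRNAs and 6 between the lines with siNC. In the same order 0.00993%, 0.0546%, 0.124%, 0.268%, 0.223%, 2.56% and 44.3% of all tested genes passed. With the replicate block the counts of the 40 genes were 3, 4, 22, 8, 25, 4 and 26. For the siRNA difference and the lines with siNC, 20.6% and 61.7% of all tested genes passed with it. With no low-count filter they were 0, 1, 4, 1, 7, 1 and 19, with DESeq2 0, 0, 1, 2, 3, 2 and 7, and limma on log2(RPKM + 1) called 1 for siACAT1-2 in T24 cells. Without the T24 libraries of number 2 the counts were 1 for siACAT1-1 in T24 cells and 2 in the mean, and without the UM-UC-3 libraries of number 3 the lines differed in 10 genes. Leaving out 1 library gave 0 to 1 for each siRNA in T24 cells and for the mean (1 without T24 siNC replicate 2 or siACAT1-1 replicate 2), 0 to 1 for the siRNA difference (0 without UM-UC-3 siACAT1-2 replicate 1, T24 siACAT1-1 replicate 1 or T24 siACAT1-2 replicate 3) and 3 to 8 between the lines (3 without UM-UC-3 siNC replicate 1 or 2). For the replicate number the counts were 34 to 37 in UM-UC-3 cells and 31 to 37 in T24 cells, and without the 3 UM-UC-3 libraries of number 3 the count in UM-UC-3 cells was 1. Except where given above, the shares of all tested genes under these settings and those of the next paragraph are not given here. Counts without such a share cannot be read as particular to the 40 genes. The causes were not tested.

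With the replicate block and no low-count filter, the counts for siACAT1-2 in UM-UC-3 cells, siACAT1-2 in T24 cells and the siRNA difference were 10, 13 and 7. With the block and without the UM-UC-3 libraries of number 3, siACAT1-1 and siACAT1-2 in UM-UC-3 cells had 0 and 1, and without the T24 libraries of number 2, siACAT1-2 in UM-UC-3 cells had 11 and the siRNA difference 12. Leaving out 1 library with the block gave 0 to 3 for siACAT1-1 in UM-UC-3 cells (0 without replicate 1 or 3 of siNC or siACAT1-1), 1 to 9 for siACAT1-2 there (1 or 2 without any siNC or siACAT1-2 library of the line, 9 without T24 siACAT1-1 replicate 2 and 7 without its replicate 3), 3 to 30 for siACAT1-1 in T24 cells (3 to 6 without replicate 1 or 3 of siNC or siACAT1-1) and 2 to 14 for siACAT1-2 there (2 or 3 without siNC replicate 1 or 3 or siACAT1-2 replicate 1, 13 or 14 without replicate 2 of siNC or siACAT1-1). The mean had 16 (without T24 siNC replicate 3) to 31, and the siRNA difference 3 to 13 (without T24 siACAT1-1 replicate 2).

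The median log2 fold change of the 40 genes ranged from -0.45 to -0.20 (without UM-UC-3 siNC replicate 2; -0.23 without T24 siNC replicate 1) when 1 library was left out. Of the 40 mean log2 fold changes under 6 other settings, 205 of 240 values stayed on their side of the threshold with their sign and 35 newly passed it. The replicate block was 1 of these 6 settings and gave 25 of the 35. Of 720 values with 1 library left out, 18 turned positive, in RFC1 (range over all omissions -0.13 to 0.10), PRIM2 (-0.10 to 0.11), POLE2 (-0.41 to 0.10), GINS1 (-0.38 to 0.044), FEN1 (-0.38 to 0.062) and RPA1 (-0.12 to 0.092). With 3 libraries a group and no pairing by number, a difference of the size of the replicate spread cannot be told from that spread. The labels do not give that pairing.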

Other observations

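Lists outside DNA synthesis were described in the same model. Interferon response genes were the 1 list with a gene that passed in the mean of the 4 comparisons without the block: IFIT3 had a mean log2 fold change of 0.76 ± 0.12 (SE, edgeR, adjusted p = 0.0182). With the block 7 of 13 rose, where 5.95% of all tested genes rose. The count was 6 without the UM-UC-3 libraries of number 3 and 8 without the T24 libraries of number 2. The share of all tested genes that rose in these refits is not given here. The refit counts can therefore not be read as particular to the list. The highest with the block was IFI6 at 1.21 ± 0.31 (adjusted p = 0.013) and the lowest OAS3 at -0.19 (0.185). IFI6 had 1.81, 1.85 and 1.65 RPKM in the T24 siNC libraries, 10.3, 1.80 and 16.95 RPKM with siACAT1-1 and 17.8, 2.05 and 13.1 RPKM with siACAT1-2, so that the libraries of number 2 stayed at the level of siNC. Without the T24 libraries of number 2 its mean was 1.66 ± 0.20. In UM-UC-3 cells it had 0.491 to 1.61 RPKM and the groups overlapped.

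The list was also followed by siRNA. In UM-UC-3 cells with the block, 0 of the 13 genes rose with siACAT1-1 (median log2 fold change 0.05) and 5 with siACAT1-2 (median 0.93). Of all tested genes 1.96% and 0.635% rose there. In T24 cells 5 rose with siACAT1-1 (0.57) and 4 with siACAT1-2 (0.50), where 6.59% and 4.55% of all tested genes rose. The median of the list in the UM-UC-3 libraries, as log2 CPM minus the mean of the line, was -0.25, -0.40 and -0.18 with siNC, -0.10, -0.16 and -0.19 with siACAT1-1, and 0.64, 0.60 and 0.69 with siACAT1-2. In the direct comparison of the siRNAs over both lines, 7 of the 13 genes were higher and 1 lower with siACAT1-2 (with the block, and 1 and 1 without it). Of all tested genes 20.6% differed in either direction with the block and 2.56% without it.

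Of 6 CDK inhibitors 1 rose and 1 fell in the mean with the block, where 5.95% of all tested genes rose and 6.46% fell. Without it 0 passed (0 at an unadjusted p under 0.05). CDKN1A, which encodes p21, had 2.65, 2.57 and 2.88 RPKM in the UM-UC-3 siNC libraries, 5.61, 3.03 and 6.57 RPKM with siACAT1-1 and 4.74, 5.40 and 4.98 RPKM with siACAT1-2, with no overlap. In T24 cells the 3 libraries of number 2 had 6.41 to 8.06 RPKM and the other 6 had 0.724 to 3.45 RPKM. Its mean log2 fold change was 0.60 ± 0.14 (edgeR, adjusted p = 0.00978) with the block and 0.52 ± 0.43 (0.722) without it. With the block it was 0.57 (adjusted p = 0.0499) without the UM-UC-3 libraries of number 3 and 0.68 (0.00256) without the T24 libraries of number 2. CDKN2C, which encodes p18, had -0.60 ± 0.13 (0.0042) with the block, and -0.38 (0.0267) without the UM-UC-3 libraries of number 3. CDKN2B had the highest fitted value of the list, but it was at 0 in 8 of the 9 UM-UC-3 libraries, which leaves its fold change without an estimate, and had 0.709 to 2.89 RPKM in T24 cells.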
